A study of Mus musculus with 8 samples.

Results

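The genes examined were 10 members of the BCL2 family, the proteins that decide whether mitochondria release the signals for apoptosis, among the 55487 mouse genes of the count table. They were chosen by name, through the symbol of each Ensembl identifier in the GENCODE M21 annotation of GRCm38, and all 10 passed the filter on low counts that left 15411 genes for testing. They fall into 4 anti-apoptotic genes (Bcl2, Bcl2l1, Mcl1 and Bcl2a1b), 4 BH3-only genes (Bcl2l11, Bbc3, Pmaip1 and Bid) and 2 effectors (Bax and Bak1). The comparison asked how these survival and death genes stood in dendritic cells that had taken up cells killed by ferroptosis, an iron-dependent death by lipid peroxidation.

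The study sequenced mRNA from mouse bone marrow-derived dendritic cells (BMDC), in 4 libraries of untreated BMDC and 4 libraries of BMDC sorted with ferroptotic cargo (BMDC-fer). All BMDC were wild type, came from female C57BL/6J mice aged 6 to 8 weeks, and were grown in GM-CSF at 20 ng/ml for 10 days by the labels, or to day 9 to 10 by the description of the cultures. BMDC-fer had been co-cultured for 4 h with Jurkat cells, an established human T-cell leukemia line, that had been exposed to the ferroptosis inducer ML162 at 0.5 µM for 14 h, and were then isolated by cell sorting. The labels give untreated BMDC no treatment, and the sources used here describe no sort, mock co-culture or uptake of other cargo for them, so uptake, exposure to dying cells and sorting cannot be told apart. About 80% of cells in such cultures stained for CD11c, and the number of mice behind each library is not given in the sources used here.

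Library totals lay between 39326672 and 50532209 counts, of which the 10 members took 0.106 to 0.148%. Levels are given as CPM, counts relative to the TMM-scaled library size, and a floor of 3 counts corresponds to at most 0.0785 CPM. In both groups the libraries of replicates 1 and 2 lay apart from those of replicates 3 and 4. No label names a batch for this split, so results of the members are also given within each of these replicate pairs. For other called cell death genes they are given where the pairs differed in effect or call. Of 8 dendritic cell markers all were detected, Itgax (the gene of CD11c) at a mean of 1111 CPM across BMDC against 1033 CPM across BMDC-fer. The 8 markers summed to 6549 to 14970 CPM across BMDC against 3058 to 7247 CPM across BMDC-fer, and 3 of them (Flt3, Dpp4 and Ccr7) were called lower in BMDC-fer. With the replicate number as a block in the fit, Zbtb46, Cd74, H2-Ab1 and Ciita were called lower as well. The 8 macrophage markers summed to 2379 to 3205 CPM across BMDC against 2971 to 4178 CPM across BMDC-fer, with 1 called lower and none called higher. The 10 neutrophil markers summed to 52.8 to 273.5 CPM across BMDC against 20.98 to 58.6 CPM across BMDC-fer, with 5 called lower. With the block S100a8, Camp, Ltf and Mpo were called lower as well.

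In healthy cells the anti-apoptotic proteins hold BAX and BAK in check at the outer mitochondrial membrane. BH3-only proteins are sensors of damage, growth factor loss or stress that bind the anti-apoptotic proteins, each with its own partners, and some of them also activate BAX and BAK directly. Once freed, BAX and BAK form pores through which cytochrome c leaves and caspases are activated. In dendritic cells BCL2 family proteins are known to set how long the cell lives after activation.

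A gene was called when edgeR's quasi-likelihood test gave a Benjamini-Hochberg adjusted p of 0.05 or less, over all 15411 tested genes, and the log2 fold change was at least 0.58 in size. By this rule 2 of the 10 members were called, Pmaip1 and Bbc3, both BH3-only genes and both lower in BMDC-fer. Over all tested genes 9.38% were called, 3.47% higher and 5.91% lower. With the replicate number as a block, Bcl2l1 was called as well and was higher in BMDC-fer, which made 3 of 10 members against 13% of all tested genes. The BMDC and BMDC-fer libraries did not overlap in 3 of the 10 members (Pmaip1, Bbc3 and Bcl2l11), against 22.9% of all tested genes. The median log2 fold change was 0.23 over the 4 anti-apoptotic members, -0.68 over the 4 BH3-only members and 0.30 over the 2 effectors, against 0.00 over all tested genes. In bulk libraries such as these, fewer cells that express a gene and less of its RNA per cell cannot be told apart.

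**Figure D1:**
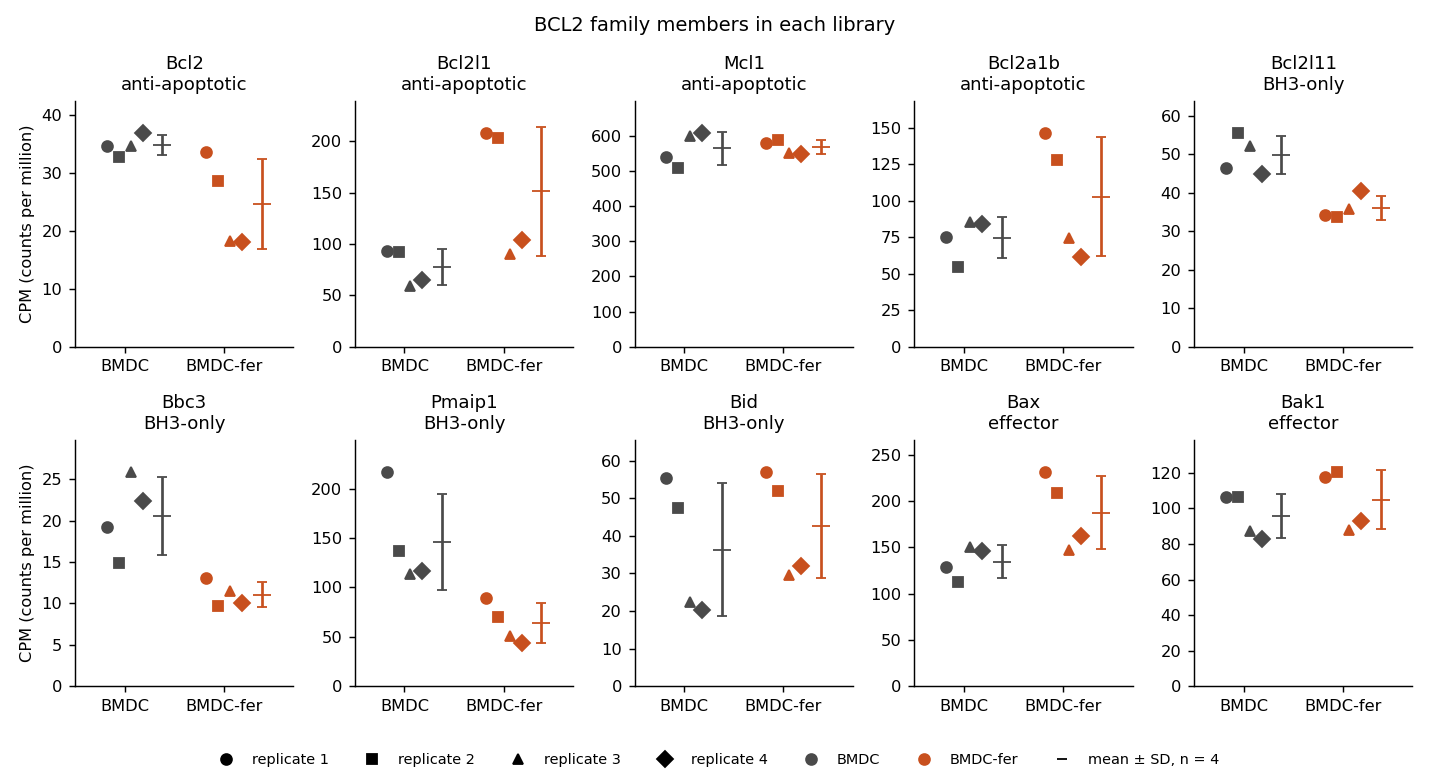
CPM of each of the 10 members in every library, with BMDC in grey and BMDC-fer in orange, the replicate number given by the marker shape and the bars showing mean ± SD over 4 libraries. Pmaip1, Bbc3 and Bcl2l11 are the members whose BMDC-fer libraries all lie below the BMDC libraries. Within BMDC-fer, every member except Bbc3 and Bcl2l11 is higher in replicates 1 and 2 than in replicates 3 and 4.

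Pmaip1 encodes NOXA, a BH3-only protein that binds MCL1 and promotes its degradation. Its level was 216.9, 137.0, 113.5 and 117.2 CPM in BMDC replicates 1 to 4, against 89.3, 70.2, 51.2 and 44.1 CPM in the BMDC-fer libraries in that order. All 4 BMDC-fer libraries were lower than the lowest BMDC library, and BMDC replicate 1 stood highest. The means were 146.2 ± 48.3 CPM across BMDC against 63.7 ± 20.3 CPM across BMDC-fer (SD, n = 4 each). Pmaip1 fell by 1.20 on the log2 scale (standard error 0.28, 95% interval -1.83 to -0.57, edgeR Benjamini-Hochberg adjusted p = 0.0285). Pmaip1 was called lower in both replicate pairs, at -1.149 in replicates 1 and 2 against -1.28 in replicates 3 and 4 on the log2 scale, and the difference between the pairs was not significant (interaction -0.13, edgeR Benjamini-Hochberg adjusted p = 0.748). The call was lost when BMDC-fer replicate 2, 3 or 4 was left out (edgeR Benjamini-Hochberg adjusted p = 0.0664, 0.0757 and 0.0831), the highest of a range that began at 0.000757 over 17 alternatives. No 50-base word of the Pmaip1 transcript examined occurs in another gene.

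The 3 genes whose log2 CPM followed Pmaip1 most closely over the 8 libraries were Gm43305, Ifitm1 and AI839979, with a Pearson r of 0.993, 0.991 and 0.991. The 8 points fall in 2 groups that differ in level for all 4 genes, so these values describe the libraries and carry no p. Ifitm1, an interferon-induced membrane protein, had a mean of 984.3 CPM across BMDC against 253.7 CPM across BMDC-fer.

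Bbc3 encodes PUMA, a BH3-only protein best known as a target of p53 and of FOXO factors, which binds every anti-apoptotic member of the family. Its level was 19.2, 14.9, 25.9 and 22.4 CPM in BMDC replicates 1 to 4, against 13.0, 9.69, 11.5 and 10.1 CPM in the BMDC-fer libraries in that order. The groups did not overlap, and BMDC replicate 2 came closest to the BMDC-fer libraries. Bbc3 fell by 0.89 on the log2 scale (standard error 0.19, 95% interval -1.33 to -0.46, edgeR Benjamini-Hochberg adjusted p = 0.0225). Its change was -0.58 in replicates 1 and 2, just past the threshold, against -1.16 in replicates 3 and 4, a difference that did not pass the test (edgeR interaction, Benjamini-Hochberg adjusted p = 0.0966). Leaving out BMDC replicate 3 or 4, or BMDC-fer replicate 2, 3 or 4, took the edgeR Benjamini-Hochberg adjusted p to 0.0506, 0.0532, 0.0608, 0.0544 and 0.0712, so that the call was lost, and over 17 alternatives it lay between 0.000647 and 0.0712.

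Bcl2l11 encodes BIM, a BH3-only protein that is known to end the life of activated and growth factor-deprived blood cells. Its level was 46.6, 55.6, 52.1 and 44.97 CPM in BMDC replicates 1 to 4, against 34.4, 33.8, 35.7 and 40.4 CPM in the BMDC-fer libraries in that order. The groups did not overlap, with the highest BMDC-fer library close to the lowest BMDC library. Its log2 fold change of -0.47 (standard error 0.11, 95% interval -0.72 to -0.21) had an edgeR Benjamini-Hochberg adjusted p of 0.0310 but was smaller than the fold threshold, so Bcl2l11 was not called. With the replicate block the edgeR Benjamini-Hochberg adjusted p was 0.0506, within 0.0039 to 0.0848 over 17 alternatives. In replicates 1 and 2 alone its log2 fold change was -0.59, just past the threshold, and in replicates 3 and 4 alone it was -0.35, with no significant difference between the pairs (edgeR interaction, Benjamini-Hochberg adjusted p = 0.287).

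Bid, the BH3-only protein that caspase-8 cleaves to link death receptors to mitochondria, was the BH3-only member whose values were not lower in BMDC-fer. It stood at 55.5, 47.3, 22.3 and 20.2 CPM in BMDC replicates 1 to 4, against 56.9, 51.9, 29.6 and 32.0 CPM in the BMDC-fer libraries in that order. The split between replicate pairs was larger than the split between groups, and the log2 fold change was 0.23 (standard error 0.37, edgeR Benjamini-Hochberg adjusted p = 0.705). Within replicates 3 and 4 it was 0.54, under the fold threshold, and within replicates 1 and 2 it was 0.08.

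The falls of Pmaip1 and Bbc3 came in the same libraries as lower sums of the dendritic cell, mast cell and basophil, and neutrophil markers, whose part in these results was not tested. Dendritic cell markers summed to 14970, 10100, 6913 and 6549 CPM in BMDC replicates 1 to 4, against 7247, 4698, 3061 and 3058 CPM in the BMDC-fer libraries in that order. The 6 mast cell and basophil markers, of which 3 were tested and none called, summed to 64.9, 45.4, 35.01 and 32.5 CPM, against 33.01, 20.3, 14.5 and 17.96 CPM. Both sums, like Pmaip1, were higher in replicates 1 and 2 than in replicates 3 and 4 within each group. Bbc3 did not share this order. In BMDC it was lower in replicates 1 and 2 (19.2 and 14.9 CPM) than in replicates 3 and 4 (25.9 and 22.4 CPM). In BMDC-fer the values of Bbc3 in the 2 replicate pairs overlapped. Each sum rested largely on few genes. Across BMDC the largest parts were Cd74 (mean 6041 CPM, against 2728 CPM across BMDC-fer) and H2-Ab1 (2113 against 688.4 CPM) for dendritic cells. For mast cells and basophils they were Kit (21.3 against 13.0 CPM) and Gata2 (19.4 against 7.59 CPM). Without the block none of these genes was called. With it Cd74 and H2-Ab1 were called lower, while Kit and Gata2 were not called. The block also gave a lower call for Cpa3, a mast cell and basophil marker. Neutrophil markers summed to 273.5, 52.8, 241.8 and 71.0 CPM in BMDC replicates 1 to 4. In BMDC-fer these markers summed to 58.6, 20.98, 22.2 and 24.1 CPM. None of the 10 neutrophil markers was at 0 in all libraries. The 4 cell cycle markers summed to 310.3 to 828.3 CPM across BMDC against 265.8 to 654.7 CPM across BMDC-fer, with none called.

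Promoter sequence was available for 9 of the 10 members, as 14 RefSeq start sites (GRCm38.p6), and the 250 bases before each start were searched on both strands for 5 motifs that were chosen with the results known. The FOXO core TGTTTAC, shown because FOXO factors are known to control both genes, was found before a start of the BH3-only genes Bbc3 and Bcl2l11 and of no other member searched. It occurs in 3.17% of 32851 promoters of that length. The 30-base windows are printed along the strand of the gene, with the core in capitals, and the core lies on the opposite strand in Bcl2l11.
Bcl2l11, outside the gene, chr2:128125799-128125828, plus strand: caagacactaggGTAAACAcgccggggtgg
Bbc3, intron, chr7:16310082-16310111, plus strand: gtctggcgggttTGTTTACaaacaatgggg
The core begins 227 bases before the Bcl2l11 start at 128126038 on chromosome 2, and 167 bases before the Bbc3 start at 16310261 on chromosome 7, which lies inside the longer gene model. The NF-kB consensus occurred before starts of Bbc3 and Bcl2l1 (7.25% of all promoters), with the Bbc3 matches overlapping each other on the 2 strands. The PU.1 core GAGGAAG occurred for Bak1, Bcl2 and Bcl2a1b (10.61% of all promoters), the E-box CACGTG, which reads the same on both strands, for Bax and Bbc3 (6.02%), and TGACTCA or TGAGTCA, the AP-1 consensus, for no member (4.46%). Such matches are letters in a window and not measured binding. Transcripts of FOXO, NF-kB and AP-1 genes are given with the other cell death genes. Those of PU.1 and of E-box factors were not examined.

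Among the anti-apoptotic members, Bcl2l1, which encodes BCL-XL, stood at 93.5, 92.1, 59.2 and 65.4 CPM in BMDC replicates 1 to 4, against 208.0, 202.7, 89.8 and 103.9 CPM in the BMDC-fer libraries in that order. Each BMDC-fer library lay above the BMDC library of the same number, while BMDC-fer replicate 3 lay below BMDC replicates 1 and 2, so the groups overlapped. The log2 fold change was 0.96 (standard error 0.31, 95% interval 0.27 to 1.65, edgeR Benjamini-Hochberg adjusted p = 0.0730), and without the block Bcl2l1 was not called. With the replicate block the log2 fold change was 0.89 (standard error 0.14) and Bcl2l1 was called (edgeR Benjamini-Hochberg adjusted p = 0.0124). DESeq2 also called it (Benjamini-Hochberg adjusted p = 0.0254), and over 17 alternatives the adjusted p lay between 7.03e-05 and 0.166. Bcl2l1 was called within each replicate pair, at 1.146 in replicates 1 and 2 against 0.64 in replicates 3 and 4, and the effect differed between the pairs (edgeR interaction, Benjamini-Hochberg adjusted p = 0.0120).

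**Figure D2:**
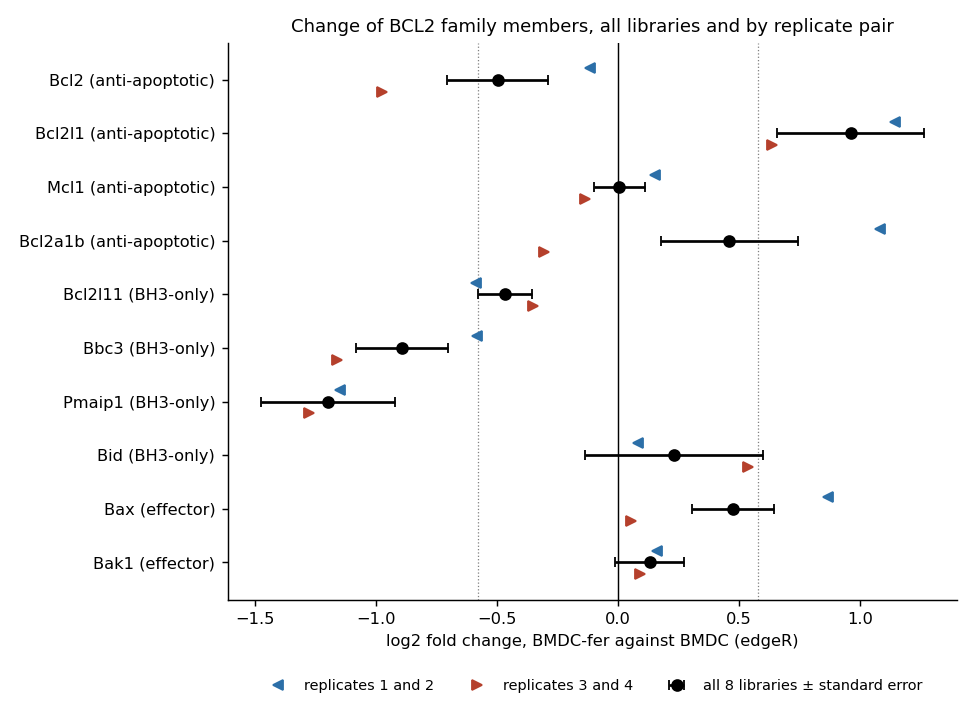
log2 fold change of BMDC-fer against BMDC for each member, with black points and bars for all 8 libraries ± standard error, blue triangles for replicates 1 and 2, red triangles for replicates 3 and 4, and dotted lines at the fold threshold of 0.58. The red and blue triangles lie close together for Pmaip1 and Bak1 and far apart for Bcl2, Bcl2a1b and Bax.

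Bcl2, the founding member of the family, was at 34.7, 32.7, 34.7 and 36.9 CPM in BMDC replicates 1 to 4, against 33.5, 28.6, 18.3 and 18.1 CPM in the BMDC-fer libraries in that order. The BMDC libraries were close to each other, and in BMDC-fer replicates 3 and 4 were below replicates 1 and 2. Over all libraries the log2 fold change was -0.50 (standard error 0.21, edgeR Benjamini-Hochberg adjusted p = 0.149) and Bcl2 was not called. Its change was -0.12 in replicates 1 and 2 against -0.98 in replicates 3 and 4, where it was called, and the difference between the pairs passed the test (edgeR interaction, Benjamini-Hochberg adjusted p = 0.00195).

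Mcl1, an anti-apoptotic protein with a short life that is needed by many blood cells, had the highest mean level of the 10 members in both groups, per length as well. Its level was 540.1, 508.7, 598.9 and 607.7 CPM in BMDC replicates 1 to 4, against 580.2, 586.5, 550.7 and 548.1 CPM in the BMDC-fer libraries in that order. All BMDC-fer libraries lay within the range of the BMDC libraries. The log2 fold change was 0.01, with a 95% interval of -0.23 to 0.25 (edgeR Benjamini-Hochberg adjusted p = 0.976). It was 0.15 in replicates 1 and 2 against -0.14 in replicates 3 and 4, and the sign over all libraries turned with the scaling, so no direction is given.

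Bcl2a1b encodes a mouse A1 protein, an anti-apoptotic member known as a target of NF-kB in immune cells, and is 1 of several near-identical copies on chromosome 9. The sequences below show the first 100 coding bases of the 3 copies with counts, 5′ to 3′ along each gene, and capitals mark the 7 positions at which any of them differ. They are printed because a read that falls between such positions cannot be placed on 1 copy.
Bcl2a1a, chr9:88957051-88957150, plus strand: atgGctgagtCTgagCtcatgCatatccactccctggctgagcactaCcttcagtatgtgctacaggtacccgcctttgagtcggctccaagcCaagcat
Bcl2a1b, chr9:89199360-89199459, plus strand: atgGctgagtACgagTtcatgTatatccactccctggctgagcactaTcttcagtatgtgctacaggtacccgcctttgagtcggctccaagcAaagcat
Bcl2a1d, chr9:88731620-88731719, minus strand: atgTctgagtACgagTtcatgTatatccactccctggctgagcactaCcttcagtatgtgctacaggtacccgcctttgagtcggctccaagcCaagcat
Over the 516 coding bases, Bcl2a1b differed from Bcl2a1d at 6 positions (98.8% identical) and from Bcl2a1a at 11 (97.9%). Of the 50-base words of the Bcl2a1b transcript 79.2% also occur in other genes, and of the 150-base words 41.9%. How reads that fit several places were counted is not given in the sources used here, so the split of counts between the copies is uncertain.

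As counted, Bcl2a1b was at 74.9, 54.8, 85.2 and 83.8 CPM in BMDC replicates 1 to 4, against 146.4, 128.0, 74.7 and 61.8 CPM in the BMDC-fer libraries in that order. BMDC-fer replicates 1 and 2 lay above all BMDC libraries, and replicates 3 and 4 lay among them. The log2 fold change of 0.46 (standard error 0.28) did not pass the test (edgeR Benjamini-Hochberg adjusted p = 0.303). It was 1.08 in replicates 1 and 2, where Bcl2a1b was called, against -0.31 in replicates 3 and 4, and the difference between the pairs passed the test (edgeR interaction, Benjamini-Hochberg adjusted p = 0.00129).

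Neither Bcl2a1a (log2 fold change -0.23) nor Bcl2a1d (-0.26) was called, with an edgeR Benjamini-Hochberg adjusted p of 0.443 and 0.511, and Bcl2a1c had almost no counts. Summed into 1 gene, the copies were at 460.7 ± 61.1 CPM across BMDC against 427.2 ± 142.6 CPM across BMDC-fer (SD, n = 4 each). Their log2 fold change was -0.11 (standard error 0.24, edgeR Benjamini-Hochberg adjusted p = 0.785), so that the sign found for Bcl2a1b was not that of the sum. Bcl2a1b took 14.6, 14.7, 17.8 and 17.4% of the counts of these copies in BMDC replicates 1 to 4, against 25.5, 24.4, 23.8 and 20.9% in the BMDC-fer libraries in that order. Its share was higher in every BMDC-fer library than in every BMDC library, a description of counts whose split is uncertain. The sum fell within replicates 3 and 4 (-0.65, edgeR Benjamini-Hochberg adjusted p = 0.00354) and was 0.31 within replicates 1 and 2.

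**Figure D3:**
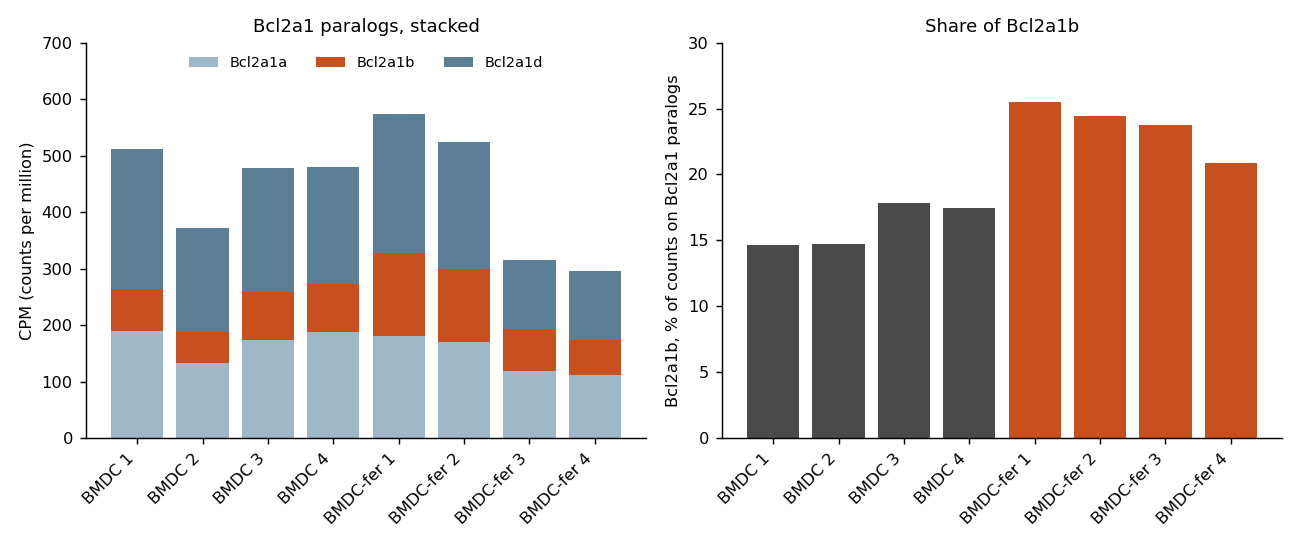
Left, stacked CPM of the 3 Bcl2a1 copies with counts in each library. Right, Bcl2a1b as a percent of the counts on all Bcl2a1 copies, with BMDC in grey and BMDC-fer in orange. The share lies between 14.6 and 17.8% in BMDC and between 20.9 and 25.5% in BMDC-fer, while the stacked height is lowest in BMDC-fer replicates 3 and 4.

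Neither effector was called. Bax, which moves from the cytosol to mitochondria to form pores, was at 129.1, 112.2, 151.0 and 146.5 CPM in BMDC replicates 1 to 4, against 231.5, 209.5, 146.8 and 162.3 CPM in the BMDC-fer libraries in that order. BMDC-fer replicates 1 and 2 lay far above all other libraries, and BMDC-fer replicate 3 lay below BMDC replicate 3. The log2 fold change was 0.48 (standard error 0.17, edgeR Benjamini-Hochberg adjusted p = 0.0986), made up of 0.87 in replicates 1 and 2, where Bax was called, against 0.06 in replicates 3 and 4 (edgeR interaction, Benjamini-Hochberg adjusted p = 0.00195). Bak1, the effector that sits in the mitochondrial membrane, was at 106.7, 106.2, 87.6 and 82.7 CPM in BMDC replicates 1 to 4, against 117.8, 120.4, 88.1 and 93.0 CPM in the BMDC-fer libraries in that order. The groups overlapped, and the log2 fold change of 0.13 had a 95% interval of -0.20 to 0.46 (edgeR Benjamini-Hochberg adjusted p = 0.573).

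The replicate pairs gave different sets of called members. In replicates 1 and 2 alone 6 of 10 members were called, Bcl2l1, Bcl2a1b and Bax higher and Bcl2l11, Bbc3 and Pmaip1 lower, against 22.3% of all tested genes. In replicates 3 and 4 alone 4 of 10 were called, Bcl2l1 higher and Bcl2, Bbc3 and Pmaip1 lower, against 33% of all tested genes. Bcl2l1, Bbc3 and Pmaip1 were thus called in the same direction in both pairs. The effect differed between the pairs, at an adjusted p of 0.05 or less in edgeR's interaction test, for 5 of 10 members (Bcl2, Bcl2l1, Bcl2a1b, Bid and Bax), against 37.8% of all tested genes.

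Levels of different genes were compared as CPM per kilobase of merged exons. In BMDC the order of the mean levels was Mcl1 (165 ± 13.9), Bcl2a1b (91.4 ± 17.2), Bax (85.5 ± 11.2), Pmaip1 (53.5 ± 17.7), Bak1 (39.8 ± 5.19), Bcl2l1 (16.9 ± 3.88), Bid (10.2 ± 5.002), Bbc3 (9.69 ± 2.20), Bcl2l11 (6.21 ± 0.613) and Bcl2 (3.79 ± 0.186) CPM per kilobase (SD, n = 4). The ranges of Mcl1 and Bcl2a1b did not overlap, while those of Bcl2a1b and Bax, of Bax and Pmaip1, of Pmaip1 and Bak1, of Bcl2l1 and Bid and of Bid and Bbc3 did. In BMDC-fer Pmaip1 stood after Bak1 and Bcl2l1, at 23.3 ± 7.43 CPM per kilobase, and Bcl2l1 before it at 33.0 ± 13.7, with overlapping ranges. The ranges of Mcl1 and Bcl2a1b and of Bcl2a1b and Bax also overlapped in BMDC-fer, as did those of Bak1 and Bcl2l1 and of Bbc3 and Bcl2l11. By their means the remaining members stood in the same order as in BMDC, with Mcl1 at 166 ± 5.79 and Bcl2 at 2.69 ± 0.842 CPM per kilobase at the ends. The length used is that of all annotated exons, which a cell need not use in full, and Bcl2a1b carries the uncertainty of its copies.

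The summed level of the 4 anti-apoptotic members, divided by that of the 6 pro-apoptotic members, was 1.16, 1.24, 1.49 and 1.56 in BMDC replicates 1 to 4, against 1.56, 1.62, 1.65 and 1.48 in the BMDC-fer libraries in that order. Replicates 1 and 2 were higher in BMDC-fer, and replicates 3 and 4 were at the same height in both groups. The log2 ratio differed by 0.22 between the groups, beside a pooled SD of 0.15, and by 0.41 in replicates 1 and 2 and 0.03 in replicates 3 and 4. With each member given the same weight the difference was 0.46, without Mcl1 0.44, without Bcl2a1b 0.11 and without BMDC replicate 1 it was 0.15. These ratios were not tested, since the members were chosen with results known. Of the Bcl2a1 copies the sums hold Bcl2a1b alone. Bcl2a1d, left out, was at 286.6, 213.5, 253.2 and 241.9 CPM per kilobase in BMDC replicates 1 to 4. In BMDC-fer it was at 286.1, 261.1, 140.3 and 142.0, in that order. Bcl2a1a, also left out, was at 231.6, 162.2, 212.7 and 229.7 against 221.0, 208.6, 145.2 and 136.1. Ratios with these copies were not computed, so the direction found holds for the listed members only. Mcl1 made up 57.7 to 62.1% of the anti-apoptotic sum in BMDC and 42.7 to 61.5% in BMDC-fer.

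**Figure D4:**
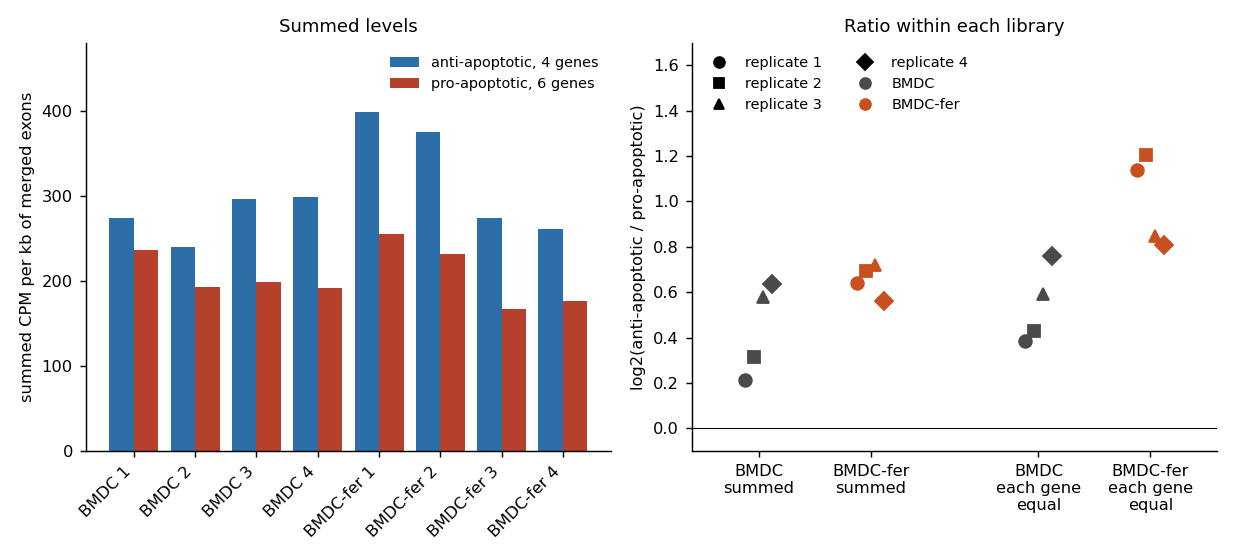
Left, summed CPM per kilobase of merged exons of the anti-apoptotic and the pro-apoptotic members in each library, without Bcl2a1a and Bcl2a1d. Right, log2 of their ratio in each library, from the sums and with each gene given equal weight. From the sums the BMDC-fer libraries span 0.56 to 0.72 and the BMDC libraries 0.21 to 0.64, so they overlap. With equal weights BMDC-fer spans 0.81 to 1.20 and BMDC 0.39 to 0.76, without overlap.

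For known binding partners the ratio of levels was described in the same way. The level of Mcl1 over that of Pmaip1 was 3.33 ± 1.06 in BMDC and 7.60 ± 2.09 in BMDC-fer (SD, n = 4 each), with no overlap between groups. Mcl1 over Bcl2l11 was 26.9 ± 4.198 and 37.1 ± 4.03, and Bcl2l1 over Bak1 was 0.421 ± 0.0485 and 0.733 ± 0.201, both also without overlap. Bcl2l1 over Bax (0.205 ± 0.0718 and 0.268 ± 0.0618) and Bcl2 over Bcl2l11 (0.618 ± 0.0878 and 0.610 ± 0.225) overlapped. Between survival genes, Bcl2l1 over Bcl2 was 4.49 ± 1.17 in BMDC and 11.96 ± 1.81 in BMDC-fer, without overlap, while Bcl2l1 over Mcl1 was 0.105 ± 0.032 and 0.197 ± 0.0762, with overlap.

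Of 64 further genes of cell death, on lists of known function, 59 were tested, and 5 were called higher and 7 lower, against 9.38% of all tested genes called. Their median log2 fold change was -0.06. Bcl2l2, which encodes the anti-apoptotic BCL-W, was 22.1 ± 3.14 CPM across BMDC against 34.5 ± 4.04 CPM across BMDC-fer (SD, n = 4 each) and rose by 0.64 on the log2 scale (edgeR Benjamini-Hochberg adjusted p = 0.0247). Bmf, a BH3-only gene tied to cell detachment, was 33.1 ± 8.14 CPM across BMDC against 11.2 ± 4.72 CPM across BMDC-fer and fell by 1.57 on the log2 scale (edgeR Benjamini-Hochberg adjusted p = 0.0196), a larger change than in any of the 10 members. Bcl2l2 changed by 0.35 in replicates 1 and 2, where it was not called, against 0.95 in replicates 3 and 4 (edgeR interaction, Benjamini-Hochberg adjusted p = 0.00839). Bmf changed by -2.355 against -0.86 in the same order (edgeR interaction, Benjamini-Hochberg adjusted p = 0.00726). With Bmf, 3 of the 7 BH3-only genes tested were called, all lower. The other BH3-only genes Bad and Bik were not called, and Hrk had no counts in any library, where 3 counts would be at most 0.0785 CPM.

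Bcl2l14, a BCL2-like gene at low level, was 1.02 ± 0.305 CPM across BMDC against 0.217 ± 0.0853 CPM across BMDC-fer, and it fell (log2 fold change -2.22, edgeR Benjamini-Hochberg adjusted p = 0.0106). Over all tested genes 9.38% were called. The share was 20% on the caspase list, 14.3% on the IAP list and 28.6% on the death receptor list, each resting on few genes. Of 10 apoptosome and caspase genes, 2 were called, both lower. They were Casp2 (log2 fold change -1.15, edgeR Benjamini-Hochberg adjusted p = 0.00703), an initiator caspase, and Casp6 (-0.80, 0.0245), an effector caspase. Within the replicate pairs, in the order given for Bmf, Casp2 changed by -1.536 against -0.805 (edgeR interaction, Benjamini-Hochberg adjusted p = 0.0079). Casp6 changed by -1.11 against -0.462, where it was not called (edgeR interaction, Benjamini-Hochberg adjusted p = 0.0467). Of 7 IAP genes and antagonists only Birc2, which encodes the ubiquitin ligase cIAP1, was called, and it was lower (-0.72, edgeR Benjamini-Hochberg adjusted p = 0.0191). In the same pair order Birc2 changed by -0.568, where it was not called, against -0.849 (edgeR interaction, Benjamini-Hochberg adjusted p = 0.0921). Of 7 death receptors and adaptors, the TNF receptor gene Tnfrsf1a (0.58, edgeR Benjamini-Hochberg adjusted p = 0.0237) and the TRAIL receptor gene Tnfrsf10b (0.80, 0.0278) were called, both higher. By pair Tnfrsf1a changed by 0.313, where it was not called, against 0.855 (edgeR interaction, Benjamini-Hochberg adjusted p = 0.00789).

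Of 12 tested transcription factors known to control members, 3 were called (25%, against 9.38% of all tested genes). Jun, a part of AP-1 that can act on Bcl2l11 and Bbc3, rose by 0.70 on the log2 scale (edgeR Benjamini-Hochberg adjusted p = 0.0288). In the pair order given for Bmf, Jun changed by 0.864 against 0.575, where it was not called (edgeR interaction, Benjamini-Hochberg adjusted p = 0.24). The NF-kB genes Rel (log2 fold change -2.06, edgeR Benjamini-Hochberg adjusted p = 0.0160) and Nfkb1 (-0.69, 0.0470) fell. Rel changed by -0.867 against -2.974 in the same pair order (edgeR interaction, Benjamini-Hochberg adjusted p = 9.47e-05). Foxo1 was 15.6 ± 7.33 CPM across BMDC against 6.97 ± 1.97 CPM across BMDC-fer, with no overlap between groups. Without the block it was not called (-1.16 on the log2 scale, edgeR Benjamini-Hochberg adjusted p = 0.0697) and was called with it (0.0131). Foxo3 was 56.9 ± 1.33 CPM across BMDC against 53.9 ± 5.09 CPM across BMDC-fer. Its log2 fold change was -0.08 (edgeR Benjamini-Hochberg adjusted p = 0.615) and Foxo3 was not called. Trp53 (log2 fold change 0.10, edgeR Benjamini-Hochberg adjusted p = 0.859) and Rela (-0.26, 0.113) were not called either. Of 11 protein partners and turnover genes only Dynll1, a dynein light chain that holds BIM and BMF at the cytoskeleton, was called, and it was higher (0.82, edgeR Benjamini-Hochberg adjusted p = 0.0114). That is 9.09% of the list, near the share over all tested genes. Overlap with neighbouring genes was not examined for these genes.

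**Figure D5:**
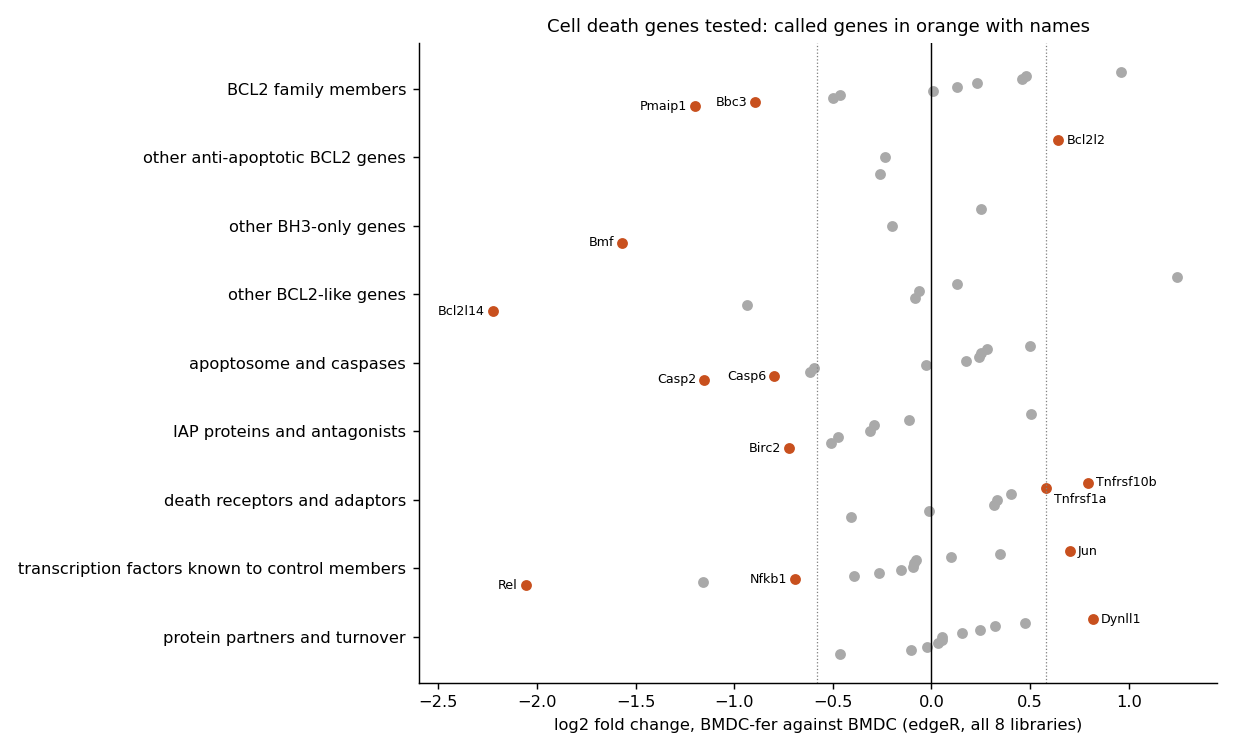
log2 fold change of BMDC-fer against BMDC for the 10 members and the 59 other tested cell death genes, by list, with called genes in orange and named and dotted lines at the fold threshold of 0.58. The 3 called BH3-only genes, Pmaip1, Bbc3 and Bmf, all lie to the left, and the 2 called death receptor genes lie to the right.

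In the GENCODE M21 annotation of GRCm38, whose build matches the mm10 of the processing notes, Bbc3 lies on chromosome 7 from 16308393 to 16318205, Bcl2l11 on chromosome 2 from 128126038 to 128162547, Bcl2l1 on chromosome 2 from 152780668 to 152831728 and Mcl1 on chromosome 3 from 95658788 to 95663176. Bcl2 lies on chromosome 1 from 106538178 to 106714274, Bcl2a1b on chromosome 9 from 89199209 to 89207827, Bax on chromosome 7 from 45461697 to 45466898, Bak1 on chromosome 17 from 27019810 to 27029009, Bid on chromosome 6 from 120891930 to 120916853 and Pmaip1 on chromosome 18. Exons of Bid share 17.7% of their bases with Bcl2l13 on the opposite strand, which was at 30.7 CPM across BMDC against 29.4 CPM across BMDC-fer. Exons of Bak1 share 18.2% with Ggnbp1, at 1.08 and 0.704 CPM, also on the opposite strand. Gm29094 covers 49.1% of the Bcl2a1b exon bases on the same strand and had 1 to 7 counts per library. Use of strand in counting is not given in the sources used here, so reads of such overlapping genes may not have been told apart.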

How the data were processed

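Reads of 8 mRNA libraries (4 BMDC, 4 BMDC-fer) were mapped by the authors with HISAT2 and counted per gene with featureCounts. They deposited raw counts of mouse genes, taken here as they stand. The submitters' processing notes also name CASAVA, DESeq2 and mm10. Versions and the annotation used in counting are not given in the sources used here. Human counts were not analysed here, and whether human reads reached mouse genes was not tested.

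Groups and replicate numbers came from the sample titles. Of 55487 identifiers, 55227 had a GENCODE M21 symbol. In R 4.3.3, edgeR 4.0.16 was run with TMM, filterByExpr (count minimum 10, 0.236 CPM at the median library size), quasi-likelihood tests and Benjamini-Hochberg adjustment over 15411 genes, with the thresholds of the study's methods. DESeq2 1.42.0 was an alternative, with limma 3.58.1 loaded by edgeR. Standard errors came from the quasi-likelihood fit. Other alternatives were other filters and scalings, the replicate block, fits without 1 library and summed Bcl2a1 copies. The fit with a term for replicates 1 and 2 against 3 and 4 was added after the data were seen.

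The members and gene lists were chosen with earlier results of these data known. All members, every called gene of the other cell death lists, every Bcl2a1 copy and the 3 genes most like the called members with the largest rise and fall were named. No called member rose, so only Pmaip1 was used. Genes named beyond this rule (Foxo1, Foxo3, Trp53, Rela, Bad, Bik, Hrk, the overlapping genes and the markers) were chosen after their values were seen.

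Same-numbered BMDC and BMDC-fer libraries deviated together across genes from their group means (r = 0.446, 0.355, 0.313 and 0.343). Differently numbered libraries of replicates 1 and 2, or of 3 and 4, correlated at 0.186 to 0.38, some of them as high as or above these values, and libraries across that split at -0.388 to -0.279. Since each same-numbered r was over 0.1, the numbers in the sample titles were taken to pair the libraries. Differently numbered libraries on the same side of the split met this rule too, so it does not show pairing by number. For the members, Foxo1 and the dendritic cell, neutrophil, and mast cell and basophil markers, the text states where the block changed a call. The study calls its samples independently collected, but which culture or mouse each came from is not given in the sources used here, so p-values measure the spread between these libraries. Counts without molecular identifiers are not independent molecules, and floors of 3 counts cover counting error only.

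The tests were tried on simulated counts. Of 191 genes changed by 2 on the log2 scale among 15135, edgeR recovered 82.7% and 13 of its 171 calls were false. The fit blocked by replicate number found 75.9%, and 8 of its 153 calls were false. DESeq2 found 88% of 200 over 15411 genes, where 55 of 231 calls were false, and the interaction test found 81.6% of 196 over 15203 genes, where 26 of 186 were false. All these calls used the adjusted p and the fold threshold together. The simulated BMDC libraries held no difference between the replicate pairs.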

Additional observations from a re-analysis of the deposited data

Results flagged for a closer look

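For 5 members the difference between BMDC-fer and BMDC differed between replicates 1 and 2 and replicates 3 and 4 by edgeR's interaction term (Benjamini-Hochberg adjusted over all tested genes). The effect on the log2 scale in replicates 3 and 4 minus that in replicates 1 and 2 was -0.86 for Bcl2, -0.51 for Bcl2l1, -1.39 for Bcl2a1b, 0.45 for Bid and -0.81 for Bax, with edgeR adjusted p of 0.00195, 0.0120, 0.00129, 0.0407 and 0.00195. Such a difference was found for 37.8% of all tested genes. In simulated counts this interaction test made 26 false calls among 186. No label gives what separates these replicates. The pairs were chosen with earlier results of these data known, so these tests are not independent of the split. For Bcl2a1b the summed copies showed a difference of -0.97 (edgeR Benjamini-Hochberg adjusted p = 0.00456). In 20 groups of 4 libraries, 1 per member and group, no single library stood apart by Dixon's test, where chance would give about 1.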

How the results depend on the processing

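Pmaip1 and Bbc3 kept their fall in all 17 alternatives and their call under each other scaling and filter, DESeq2 and the replicate block. With the replicate number as a block, called members went from 2 to 3 and called genes from 1445 to 2000, and among the members Bcl2l1 alone changed its call. DESeq2 called 2415 genes. Without 1 library, 0 to 2 members and 565 to 1440 genes were called. With replicates 1 and 2 alone 6 members and 3435 genes were called, and with replicates 3 and 4 alone 4 members and 5092 genes. These fits hold fewer libraries or another estimate of the spread, and the cause was not tested.

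Mcl1 changed sign with library totals only (-0.078), with a count minimum of 50 (-0.005), without 1 library (-0.032 to 0.046) and with replicates 3 and 4 alone (-0.14). Bcl2a1b changed sign with replicates 3 and 4 alone (-0.31) and with its copies summed (-0.11). The group difference in the log2 ratio of anti- to pro-apoptotic level was 0.22, and 0.46 with equal weights, 0.44 without Mcl1, 0.11 without Bcl2a1b and 0.15 to 0.29 without 1 library. All of these leave out Bcl2a1a and Bcl2a1d, and the ratio with those copies was not computed. Library totals moved the median of all genes by -0.09. With 4 libraries a group, members such as Bax and Bcl2 have 95% intervals (0.09 to 0.86 and -0.97 to -0.02) that allow changes larger than the threshold.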
